A study of Mus musculus with 2 samples.

Results

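The Mir379 to Mir410 cluster is a run of microRNA genes on the plus strand of mouse chromosome 12, within the imprinted Dlk1-Dio3 domain. Its members were taken by position alone: every row of the count tables whose microRNA gene starts inside a 50 kb window of chromosome 12 in GENCODE M21. The rule found 38 members among the 1973 rows of the tables. They span 38.9 kb, from Mir379 (start 109709060, mm10) to Mir3072 (end 109747960, mm10), with Mir410 the last but one. Of the 38, 34 were read on the strand of the gene. The other 4 (Mir299a, Mir380, Mir376a and Mir409) have no row of their own, and their counts are the opposite-strand counts of a minus-strand row at the same place. Mir376b lies in the window but has neither a row nor a minus-strand row, so it was not analysed here.

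The data are microRNA-seq libraries, made by sequencing small RNA of a labelled size below 30 nt, from the hindbrain of newborn B6NCrl mice at day 0 after birth. Both libraries belong to 1 group. Each came from 1 animal, and they are called pup 1 and pup 3 here after their replicate numbers. Sex was not collected, and the labels of these libraries name no treatment or mutation. With 1 group, the data give the levels of the members in this tissue and how far these 2 animals differed.

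MicroRNAs are short RNAs cut from hairpin precursors, and each guides silencing of messenger RNAs that pair with its seed, bases 2 to 8 of the mature strand. A precursor can release a mature strand from its 5′ arm (5p) and its 3′ arm (3p). The cluster is expressed from the maternal chromosome, as part of a long run of noncoding RNA that includes Meg3, Rian and Mirg, and is known for high expression in brain and placenta. Neuronal activity acts on its transcription through MEF2 factors, and mice without the cluster show metabolic defects as newborns and altered anxiety-like behaviour as adults.

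The cluster is an array of hairpins that resemble one another while their seeds mostly differ. RefSeq mature sequences (build GRCm38.p6) were found for 37 of 38 members, as 69 arms of 19 to 25 nt with 64 distinct seeds. Gm27379 and the arms miR-487b-3p, miR-376c-3p, miR-485-5p and miR-539-3p are not printed here. Of the 69 arms, 22 from 18 members matched a hairpin at another locus with at most 4 mismatches, and each of those had such a hairpin inside the cluster. Only 5 seeds occurred in more than 1 member, which joined 9 members. The pairs printed next, with the seed in capitals, show an equal seed (miR-379-3p and miR-411-3p) and unequal seeds on look-alike arms (the other pairs).
miR-379-3p: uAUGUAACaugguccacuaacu
miR-411-3p: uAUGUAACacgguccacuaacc
miR-381-3p: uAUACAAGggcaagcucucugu
miR-300-3p: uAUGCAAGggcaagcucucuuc
miR-543-3p: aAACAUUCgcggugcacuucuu
miR-495-3p: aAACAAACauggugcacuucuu
miR-154-3p: aAUCAUACacgguugaccuauu
miR-369-3p: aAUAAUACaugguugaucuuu
Mismatches to the nearest other hairpin numbered 2 for each arm of the first pair, 3 for each of the second and 4 for each of the third and the last. The 8 bases GGUUGACC, searched on the strand of the arm after they were seen in several members, occurred in arms of 5 members (Mir380, Mir1197, Mir758, Mir134 and Mir154) and in the arms of 0 other mouse genes of the table. Members' precursors had a median GC content of 44.4%, against 50.8% over 2202 GENCODE microRNA precursors.

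Counts summed over the cluster came to 289065 in pup 1 and 375103 in pup 3. Relative to the same-strand totals of 2459757 and 3012320 counts, they amounted to 11.8% and 12.5%, with a mean of 12.1% ± 0.495 (SD, n = 2, as for all values given with ±). Of these counts, 32969 in pup 1 and 52308 in pup 3 are opposite-strand counts, which those totals do not contain, so the percentages are ratios to the total and not strict shares of it. The 34 members read on their own strand held 256096 counts in pup 1, a share of 10.4% (exact 95% Clopper-Pearson interval 10.37% to 10.45%). In pup 3 they held 322795 counts, or 10.7% (interval 10.68% to 10.75%). Over either-strand counts the whole cluster held 11.7% on average. Levels are given as CPM, the count scaled to a fixed same-strand total. Reads that map to several loci are in none of these counts, and made up 40.2% and 42.0% of the reads of pups 1 and 3. Intervals cover counting error only, since they hold no spread between animals. No molecular identifiers are given for the reads, so duplicate reads cannot be told apart. Intervals and binomial tests can therefore understate even the counting error.

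Most of the annotated cluster was detectable. In both pups, 34 of 38 members (89.5%) reached 10 CPM, against 310 of all 1973 rows (15.7%), and 14 of 38 reached 1000 CPM, against 101 of 1973 (5.12%). The 4 rows read from opposite-strand counts were read the same way among all rows. The members below 10 CPM in at least 1 pup were Mir1197, Gm27379, Mir654 and Mir453. Mir1197 had 24 counts in pup 1 and 36 in pup 3, which put it just under and just over 10 CPM. Gm27379, a predicted gene, had 0 counts and 1 count. Mir654 and Mir453 had 0 counts in both pups, which allows up to 1.22 CPM in pup 1 and 0.996 CPM in pup 3. Detected members ran from Mir679 at 36.5 CPM to Mir487b at 51112 CPM, a 1400-fold range, with a median of 536 CPM against 407 CPM over all rows detected.

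**Figure D1:**
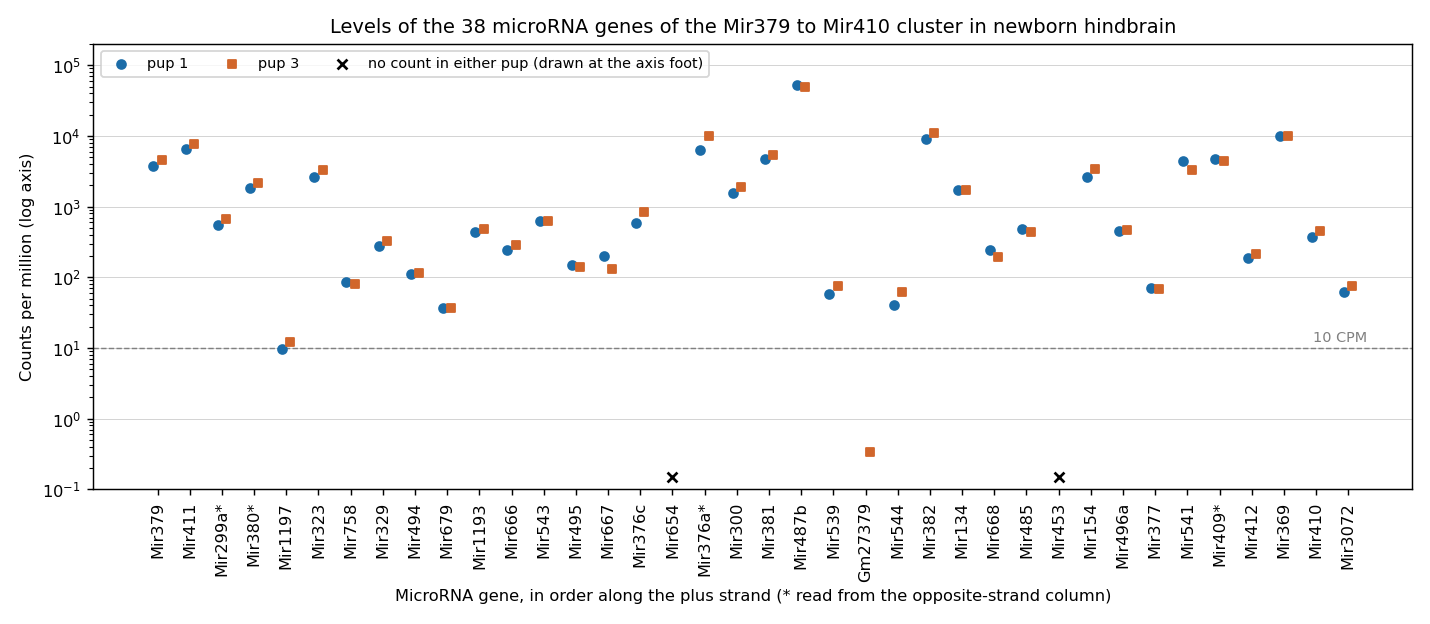
Level in CPM (log axis) of each of the 38 cluster genes in their order along the chromosome, for pup 1 (circles) and pup 3 (squares); crosses mark the 2 genes with no count, and the dashed line is 10 CPM. Mir487b stands at 51112 CPM on average, while Mir539, the next gene along, stands at 66.2 CPM.

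Mir487b held 42.3% ± 3.31 of the counts of the cluster. It had 129038 counts in pup 1 and 149905 in pup 3, or 52460 and 49764 CPM, and ranked 3 among all rows. Mir487b lies on the plus strand at 109727333 to 109727414, outside annotated host genes. The next member, Mir382, was 5.10 times lower. The 5 highest members in each pup held 71.5% ± 0.531 of the counts of the cluster, and the 12 highest held 92.6% ± 0.174, which left the other 26 genes with the small remainder. Without Mir487b, a comparison added after the data were seen, the counts of the cluster amounted to 6.99% ± 0.686 of the same-strand total.

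**Figure D2:**
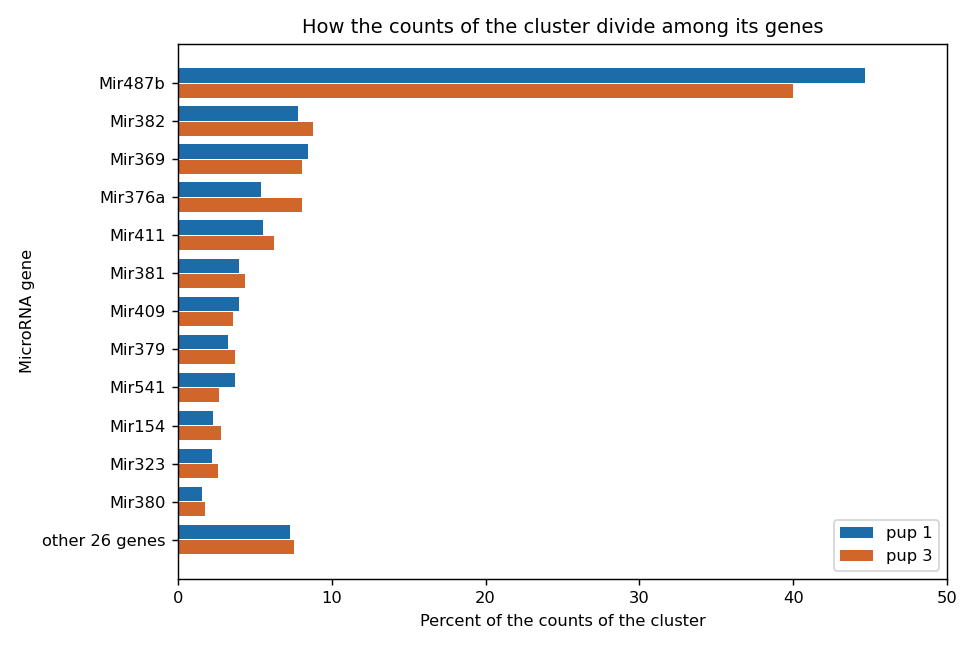
Percent of the counts of the cluster held by each of its 12 highest genes and by the other 26 together, for pup 1 and pup 3. Mir487b takes 42.3% on average, and the 12 highest genes together take 92.6%.

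Mature sequences of the members with the highest counts are printed here with the seed in capitals, except for arms already shown and miR-487b-3p. Counts are per precursor, so a level cannot be split between the arms, and which arm of Mir487b was counted is not known.
miR-487b-5p: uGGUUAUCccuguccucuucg
miR-382-5p: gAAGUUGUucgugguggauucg
miR-382-3p: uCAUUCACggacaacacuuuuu
miR-369-5p: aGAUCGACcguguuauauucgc
miR-376a-5p: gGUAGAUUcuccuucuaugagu
miR-376a-3p: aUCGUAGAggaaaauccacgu
miR-411-5p: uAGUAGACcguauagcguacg
None of these 7 arms has its seed in another member. Mir7229, a gene outside the cluster, shares the seed of miR-411-5p.

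Levels are given by region of the array, starting at its 5′ end. Mir379 (109709060 to 109709125), the first gene, stood at 3796 CPM in pup 1 and at 4603 CPM in pup 3. Its look-alike Mir411 (109710175 to 109710256) had 6485 and 7772 CPM, so it was 1.71 and 1.69 times Mir379 within the same libraries. Mir299a had 556 and 671 CPM, Mir380 had 1816 and 2162 CPM, and Mir323 had 2609 and 3261 CPM. For each of these 5 genes the value of pup 3 was the larger. Between Mir380 and Mir323 sits Mir1197, at 9.76 and 11.95 CPM, 270 ± 3.90 times below Mir323 although 71 nt separate their precursors.

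From Mir758 to Mir667 every member lay below 1000 CPM. Mir543, the highest there, had 630 and 628 CPM, and Mir1193 had 438 and 474 CPM. Mir495, whose 3p arm resembles that of Mir543 and which has been studied as a regulator of the neurotrophin Bdnf, had 148 and 138 CPM, 4.39 ± 0.206 times below Mir543. Mir666 had 241 and 287 CPM, Mir329 had 275 and 325 CPM, and Mir667 had 200 and 131 CPM. Mir494, Mir758 and Mir679 were at 113 ± 4.07, 82.7 ± 3.80 and 36.5 ± 0.471 CPM. Of these 9 genes, Mir667 was the one whose 2 values differed by over 1.5 times.

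From Mir376c to Mir544 levels were mixed, with Mir376a, Mir300, Mir381 and Mir487b above 1000 CPM in both pups and Mir654 at 0 counts between Mir376c and Mir376a. The precursors of the Mir376 family are known substrates of A-to-I RNA editing, which can change a seed and was not measured by these counts. Mir376a had 15644 opposite-strand counts in pup 1 and 30347 in pup 3, or 6360 and 10074 CPM. Mir376c had 581 and 843 CPM, 11.5 ± 0.702 times below Mir376a. Both genes were higher in pup 3. Mir300 had 1567 and 1884 CPM, and Mir381, whose 3p arm differs from that of Mir300 by 3 mismatches, had 4648 and 5401 CPM, 2.92 ± 0.0708 times Mir300. Downstream of Mir487b, Mir539 had 57.7 and 74.7 CPM and Mir544 had 40.7 and 62.4 CPM.

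The last 14 genes lie within Mirg, a noncoding RNA gene, and the 24 genes before it held 71.0% ± 0.395 of the counts of the cluster. In Mirg, 4 genes within an exon (Mir134, Mir485, Mir377 and Mir410) held 2.18% ± 0.0714, 5 that reach partly into one held 16.9% ± 0.346 and 5 intronic ones held 9.86% ± 0.670. Mir382 (109733771 to 109733846), partly in an exon, had 9143 and 10891 CPM. Mir134, which limits dendritic spine size through Limk1, had 1706 and 1701 CPM. Mir485, which acts on the synaptic vesicle protein SV2A, had 475 and 431 CPM. Mir668 had 246 and 194 CPM. Arms of Mir134 and Mir485, other than miR-485-5p, are printed for reference, with the seed in capitals.
miR-134-5p: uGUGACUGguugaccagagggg
miR-134-3p: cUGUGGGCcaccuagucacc
miR-485-3p: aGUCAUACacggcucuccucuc

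Further along Mirg, levels alternated between high and low. Mir154 had 2657 and 3448 CPM, Mir496a 453 and 463 CPM and Mir377 70.3 and 68.1 CPM. Mir541 had 4367 and 3325 CPM, and its value was lower in pup 3. Mir409, read from opposite-strand counts, had 4672 and 4458 CPM. Mir412 follows Mir409 after 52 nt and had 187 and 212 CPM. Mir369, a microRNA used with others to reprogram somatic cells, follows after a further 49 nt and had 9964 and 10005 CPM (109743418 to 109743496). Mir410, 218 nt on, had 368 and 449 CPM, and the outermost gene, Mir3072, had 62.2 and 76.4 CPM. Mir412 was thus 23.0 ± 2.78 times below Mir409 and 50.3 ± 4.27 times below Mir369.

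Across the array, the counts of neighbours differed far more than those of the pups did. Ratios between genes are ratios of counts, and how closely they follow RNA amounts in the tissue was not tested. In 31 pairs of neighbours with at least 10 counts in each pup, the higher gene had a median of 5.90 times the counts of the lower, and 12 pairs differed by over 10 times. The extreme was Mir487b over Mir539, with 909 times in pup 1 and 666 times in pup 3. The smallest ratio was between Mir667 and Mir495, at 1.35 in pup 1 and 0.945 in pup 3, so their order was not the same in both animals. Spearman's rho between level and distance along the array was 0.00077 across 38 members that share the same 2 libraries, as a description only. When members were ordered by mean CPM, the ranges of the 2 pups overlapped in 25 of 37 adjacent pairs. Mir382 and Mir369, which follow Mir487b, were one such pair, and so were Mir379 and Mir541. Ranges can overlap while the order holds within each pup, as it did for Mir380 over Mir300. Mir654 and Mir453, which had no counts, are also among the 25.

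A read that fits several loci is not counted, and 4 members share a stretch of at least 20 nt with another microRNA locus. Only annotated microRNA precursors were searched, so copies elsewhere in the genome were not looked for. Mir411 and Mir758 share 21 nt, Mir376c shares 31 nt with Mir376b, and Mir487b shares 20 nt with Mir376b, all inside the cluster. The stretches, written as they stand in Mir411 and Mir487b, lie toward the 3′ end of the precursors.
Mir411 and Mir758: gguccacuaacccucaguauc
Mir487b and Mir376b: cauccacuuuuucaguauca
The stretch covers 12 of the 22 bases of miR-411-3p and 9 of the 19 of miR-758-3p, and none of miR-411-5p or miR-758-5p. The stretch in Mir487b lies at bases 63 to 82 of 82 and covers none of miR-487b-5p, while miR-487b-3p was not compared. In Mir376c the shared stretch covers 18 of the 22 bases of miR-376c-5p, which is 1 mismatch from the hairpin of Mir376b. The median level was 3920 CPM for these 4 members and 431 CPM for the other 34, and how many reads were lost to sharing was not tested. The 4 members held nearly as many counts as the rest together, since Mir487b is one of them.

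Mir299a is a further case, because its hairpin is close to its own reverse complement and Mir299b is annotated on the other strand of the same place. The precursor is printed with both arms in capitals (109710638 to 109710700, plus strand).
Mir299a: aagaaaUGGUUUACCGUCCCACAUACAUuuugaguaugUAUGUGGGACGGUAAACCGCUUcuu
Of the 22 bases of miR-299a-5p, 21 in a row also occur on the opposite strand of this hairpin, and of the 22 of miR-299a-3p, 18 do. The longest such stretch was 7 to 9 nt in the arms of Mir380 and Mir409 and 4 to 5 nt in those of Mir376a. The row of Mir299b had 1368 opposite-strand counts in pup 1 and 2021 in pup 3, against 0 and 2 on its own strand. Whether reads of Mir299a went uncounted was not tested.

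The reading of strand was clear for the rest. The 34 members read on their own strand had 578891 counts on it over both pups and 0 on the other. The 4 rows read from the opposite-strand column had 2 counts on their own strand. Together these 4 genes made up 12.7% ± 1.80 of the counts of the cluster and 50.3% ± 2.68 of all opposite-strand counts in the tables.

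The order of members was nearly the same in both pups, and most differences were small. Across 38 members, Pearson's r of log2(CPM + 1) between pups was 0.997 and Spearman's rho 0.993, where members are not independent replicates. For each row with at least 10 counts in either library, the counts were compared by a two-sided exact binomial test given totals scaled by TMM, with Benjamini-Hochberg adjustment at 0.05 over all 399 rows tested. This test compares 2 libraries beyond counting error and not 2 conditions, and no difference has a replicate check. Of 35 members tested, 15 were higher in pup 3 (26.3% of all rows were), 7 were lower (21.3% of all rows) and 13 did not pass. Called in either direction were 22 of 35, against 47.6% of all rows. Most members have high counts, and among rows at 100 CPM or more in both pups 21 of 28 members and 159 of 230 rows were called.

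By size, the members lay within the spread of the whole table. Only 2 of 35 were past 1.5-fold, Mir376a higher and Mir667 lower in pup 3, against 18.8% of all rows (9.27% higher and 9.52% lower), which include many rows of low counts. At 100 CPM or more in both pups, 26 of 28 members and 91.7% of rows lay within 1.5-fold. The common biological coefficient of variation over 365 rows was 16.5%, and log2 folds between 2 pups then have an SD of 0.34. No member passed 2 such SDs, and 6 of 35 passed 1, against 33.8% of all rows. That SD was estimated from the same 2 libraries, members included, so it is no independent yardstick for these folds. The median log2 fold (pup 3 over pup 1) was 0.16 for members and 0.02 for all rows tested. In tissue, fewer cells of a type and less RNA per cell cannot be told apart.

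**Figure D3:**
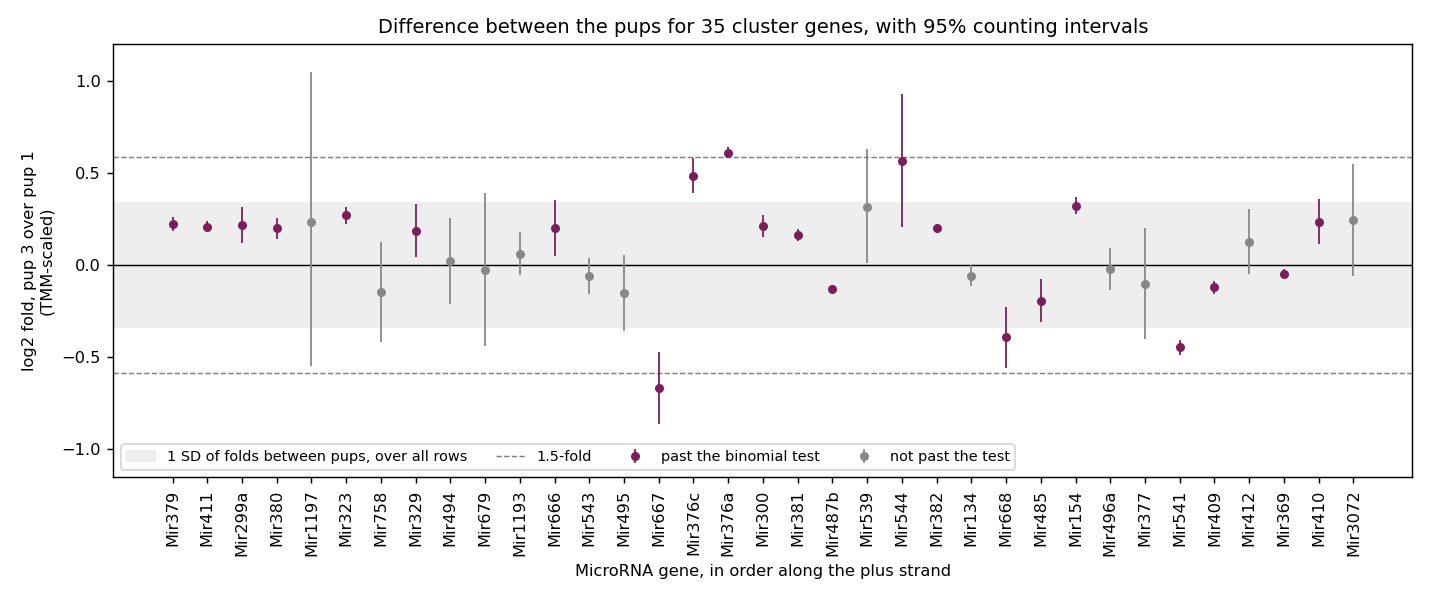
Log2 fold of pup 3 over pup 1 (TMM-scaled) for the 35 tested cluster genes in order along the chromosome, with 95% counting intervals; purple genes pass the binomial test, the grey band is 1 SD of folds between pups and the dashed lines are 1.5-fold. Mir376a (0.61) and Mir667 (-0.67) lie past 1.5-fold.

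Among the 28 members with at least 100 CPM in both pups, Mir376a had the highest log2 fold, 0.61 (counting interval 0.58 to 0.64). Mir376c followed at 0.49 (0.39 to 0.58), so the measured pair of Mir376 genes had the 2 highest values. Mir154, at 0.32, and Mir323, at 0.27, came next. At the other end stood Mir667 at -0.67 (-0.86 to -0.47), Mir541 at -0.45 (-0.49 to -0.41), Mir668 at -0.39 and Mir485 at -0.19. Each of these 8 passed the binomial test, and none of their intervals includes 0. Mir544, at 40.7 and 62.4 CPM, had a log2 fold of 0.56 (0.21 to 0.93) and also passed. The arms of 3 of these genes are printed with the seed in capitals.
miR-376c-5p: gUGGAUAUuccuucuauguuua
miR-667-3p: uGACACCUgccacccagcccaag
miR-541-5p: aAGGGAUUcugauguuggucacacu

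The first 4 genes at the 5′ end had closely similar folds. Mir379, Mir411, Mir299a and Mir380 lay between 0.20 and 0.22, with intervals that overlap, and all 4 passed the test. The next genes along were Mir1197 at 0.24, Mir323 at 0.27 and Mir758 at -0.15, of which only Mir323 passed. Mir300 and Mir382 (0.21 and 0.20) had folds of the same size, and Mir381 was at 0.16. Mir487b was lower in pup 3 by a small amount, with a log2 fold of -0.13 (-0.14 to -0.12). Mir409 was likewise at -0.12. Mir134 had -0.06 (-0.12 to 0.0021) and did not pass. Mir369 passed at -0.05, and with plain library totals its log2 fold was 0.0060. Folds therefore differed within Mirg, from 0.32 for Mir154 to -0.45 for Mir541, beyond the counting error of either.

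Precursor GC content varied with these folds, with exceptions. Across the 28 members at 100 CPM, Spearman's rho between GC content and log2 fold was -0.43 and Pearson's r -0.49, as a description over genes of the same 2 libraries. Mir376c (29.1% GC) and Mir376a (32.4%) were highest in pup 3, and Mir667 (62.0%) was lowest. Against that order, Mir666, with the highest GC content of the 28 (64.6%), had a log2 fold of 0.20 and passed, Mir323 (52.3%) had 0.27, and Mir541 was low at 43.3% GC. Of the 8 members over 50% GC, 4 had a negative fold, against 7 of the other 20. The part of GC content in the differences between the pups was not tested.

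**Figure D4:**
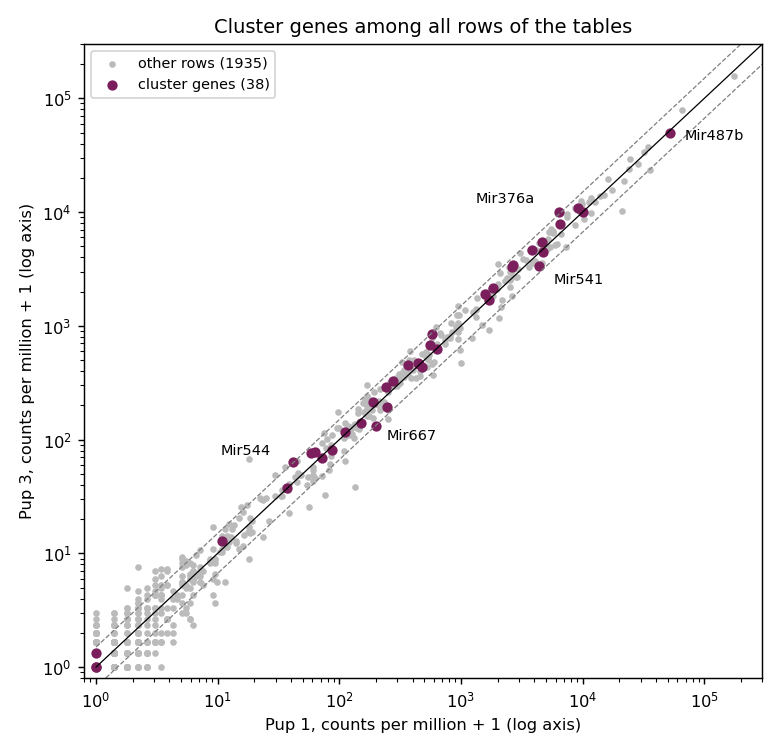
CPM + 1 in pup 1 and pup 3 (log axes) for all 1973 rows, with the 38 cluster genes in purple; the solid line marks equality and the dashed lines 1.5-fold. The cluster genes lie along the line of equality, with Mir487b at the top, and Mir376a, Mir541, Mir544 and Mir667 are named as genes off the line.

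The microRNA genes upstream in the same domain were represented too. Of 20 listed genes, 18 had rows and 14 reached 10 CPM in both pups, with 3.54% ± 0.0790 of all counts. Mir127, which acts on the imprinted gene Rtl1, led them at 13860.5 ± 127 CPM. The median over the 18 genes was 801 CPM, beside 455 CPM over the 38 members of the cluster, and this difference has no test.

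Marker microRNAs of the labelled tissue were present in part. The list of brain microRNAs had 6 of 10 measured genes at 10 CPM, with 4.02% ± 0.197 of counts. Below it were the neuronal Mir124a-1, Mir124a-2 and Mir124a-3, at 5.26, 2.31 and 0.942 CPM on average, and Mir9-2 at 1.44 CPM. The Mir124a and Mir9 genes have near-identical copies, whose reads these counts can miss. Mir10a and Mir10b, which mark hindbrain levels, held 4.52% ± 1.61. Among microRNAs of other tissues, the endothelial Mir126a held 3.56% ± 0.192, the liver microRNA Mir122 43.7 ± 2.55 CPM and the measured blood and leukocyte genes 0.0327% in sum. Of 4 striated muscle genes, 3 had no count and Mir206 had 112 ± 18.7 CPM. The summed share of Mir10a and Mir10b was 5.66% in pup 1 and 3.37% in pup 3, and its part in the members' differences was not tested.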

How the data were processed

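The authors deposited raw read counts per microRNA gene for each library, with mm10 and GENCODE M4 named in the deposited file listings. The aligner is not given in the sources used here. The meaning of the 3 count columns (either strand, strand of the gene, opposite strand) was inferred from their layout. The first equals the sum of the others in all 1973 rows. That sum does not show which of the others is the strand of the gene. The column read as such held 2459757 counts in pup 1, against 68111 in the column read as opposite. In pup 3 these were 3012320 and 100211. Totals exclude the 4 summary rows. Unmapped reads were 13.7% and 12.4% of all reads in pups 1 and 3. Reads with no gene on their own strand, which include reads opposite to a gene, were 3.79% and 3.63%. Symbols and coordinates came from GENCODE M21 (GRCm38), which matched 1894 rows by Ensembl identifier without version.

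CPM were computed over same-strand totals of 2459757 and 3012320. TMM factors and the common coefficient of variation came from edgeR 4.0.16 (R 4.3.3), the alternative size factors from DESeq2 1.42.0, and binomial tests and exact intervals from scipy 1.17.1; the test was tried on simulated counts. Folds have a prior of 0.5 counts. No quasi-likelihood test was possible with 1 library a pup. A count of 0 allows up to 3 counts. Alternatives were the totals, strand column, thresholds, scaling, count filter, prior and each pup left out. Full values are given for the 12 highest members, the 4 read from opposite-strand counts, those that share 20 nt, and the 4 highest and 4 lowest folds at 100 CPM or more; the other members are given by level, and Mir544, Mir1197, Gm27379 and the genes outside the cluster that share a seed were singled out after their values were seen. Members and lists were chosen with earlier results of these data known.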

Additional observations from a re-analysis of the deposited data

How the results depend on the processing

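The counts of the cluster relative to the same-strand total, 12.1%, came to 5.10% over all reads and 10.6% with same-strand counts alone. They came to 6.20% without the 4 members that share 20 nt with another microRNA locus. Without Mir487b, a setting chosen after seeing the data, they came to 6.99%. Over either-strand counts the percentage stayed within 1 SD, and with either pup left out it was 11.8% to 12.5%. Members detected numbered 34 or 35 with a pup left out. The count of members that differed between the pups stayed at 22 under the 4 alternatives run. By plain totals, 16 of them were higher and 6 lower. The share of all rows called moved more. It was 47.6% in the main run, 48.6% with DESeq2 size factors, 48.9% with plain totals and 25.9% with no count filter. With at least 100 counts in either library it was 68.2%, where 22 of 34 members were called. Members past 1.5-fold numbered 2, or 3 with plain totals, where Mir544 joined at 0.62. They also numbered 3 with no count filter, where Gm27379 joined with 0 counts in pup 1 and 1 in pup 3. Plain totals moved the median fold of all rows by 0.053 on the log2 scale. There Mir369 turned from -0.05 to 0.0060 and no longer passed, Mir679 and Mir496a, which passed in neither, changed sign (0.026 and 0.032), and Mir539 passed at 0.37 (0.32 with TMM). Leaving out a pup gives no fold, so those results could not be recomputed that way. No paired analysis was possible because the series has 1 group. Depth limits what can be said of Gm27379, Mir654 and Mir453, whose levels lie under the floor of 3 counts. Mir1197, at 24 counts in pup 1 and 36 in pup 3, lies over that floor and near the 10 CPM threshold.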

Other observations

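Some seeds of the cluster recur in genes that are not members. Of its 64 seeds, 12 occur in a mature sequence of such a gene, as listed by RefSeq, and these genes include Mir376b and Mir299b of the same window. The highest of those with a row elsewhere was Mir1983, which shares the seed of miR-412-3p and stood at 3064 and 4403 CPM in pups 1 and 3, beside 187 and 212 CPM for Mir412. Mir370, upstream in the same domain, shares the seed of miR-1193-3p and had 1826 ± 3.87 CPM, beside 456 ± 25.6 CPM for Mir1193 (SD, n = 2, as for the values that follow). Mir362 shares the seed of miR-329-3p and stood at 111 CPM in pup 1 but 64.1 CPM in pup 3. Mir672 shares that of miR-377-5p and had 290 ± 40.2 CPM, more than Mir377 at 69.2 ± 1.61 CPM. Mir344d-1, Mir344d-2, Mir344d-3 and Mir344e share the seed of miR-410-3p. Each had at most 7 counts in either library, beside 905 and 1354 for Mir410. Reads that fit several loci are not counted, and whether these Mir344 genes lost reads that way was not tested. The arms with these shared seeds are printed with the seed in capitals.
miR-1193-3p: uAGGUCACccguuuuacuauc
miR-329-3p: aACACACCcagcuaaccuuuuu
miR-377-5p: aGAGGUUGcccuuggugaauuc
miR-412-3p: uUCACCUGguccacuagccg
miR-410-3p: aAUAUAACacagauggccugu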
